A study of Nematostella vectensis and Apis mellifera and Strongylocentrotus purpuratus with 22 samples.

Results

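In the sea anemone Nematostella vectensis, 14782 CpGs had more than 5 times the median depth of covered CpGs in every one of the 5 Florida samples. They were taken from 8891036 CpGs listed in at least 1 of the 8 sea anemone samples, of which 7804874 had reads in all 5 Florida samples. Depth is the number of reads with methylation plus the number without at a CpG, and relative depth is that number divided by the median depth of the same sample. These CpGs, called members below, were chosen by their depth in the Florida samples, so their depth in those samples is a description and is given with no test. The smallest relative depth of a member in any Florida sample was 5.02. A group of 5046 members had a lowest relative depth of at most 6, with a median of 6.13 and a mean methylation level of 0.0976 in sperm Florida. Just outside the threshold, 8477 CpGs had a lowest relative depth above 4 and up to 5, with a median of 5.05 and a mean level of 0.0930 in that sample.

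The series holds whole-genome bisulfite data of gametes and early embryos of 4 invertebrates. The sea anemone samples came from wild-type animals of 2 origins raised in standard laboratory conditions. Sperm, oocyte, cleavage, blastula and gastrula samples came from Florida, and sperm, cleavage and blastula samples came from Massachusetts. Each stage and origin has 1 file. By their labels the cleavage and gastrula files of Florida each pool 2 replicates, and the other 6 hold 1. There is thus no replicate spread for any value, and each test compares 2 libraries, not 2 conditions. Median depth was 14 to 48 reads per covered CpG in the Florida samples and 9 to 13 in the Massachusetts samples.

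In bisulfite sequencing, unmethylated cytosines are converted and read as thymine, so the methylation level of a CpG is the share of reads that kept a cytosine. Invertebrate genomes such as that of the sea anemone carry methylation mainly inside a part of the gene bodies, with long unmethylated stretches between. Where a draft assembly holds fewer copies of a repeated sequence than the genome does, reads from many copies pile up at the same positions, and the level there is an average over copies. Ribosomal RNA genes, satellites and transposable elements are well-known high-copy DNA, and egg cytoplasm holds many copies of the mitochondrial genome. No annotation of the genome build used for the files (ASM20922v1) was used here, so no gene, repeat class or organelle is named for any scaffold, and the number of copies was not measured. Positions are on that build and are counted from 1.

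Members made up 0.172% to 0.194% of the CpGs listed per sample but held far more of the reads. Their share of all CpG reads was 1.95% in sperm Florida, 4.67% in oocyte Florida, 11.2% in cleavage Florida, 2.16% in blastula Florida and 2.02% in gastrula Florida. In the Massachusetts samples the share was 1.79% in sperm, 2.18% in cleavage and 1.68% in blastula. The exact 95% binomial interval of each share reached at most 0.00516 percentage points to either side. These intervals cover counting error only. The high shares in oocyte and cleavage Florida came from 116 members, as the plot of read shares by sample shows.

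**Figure D1:**
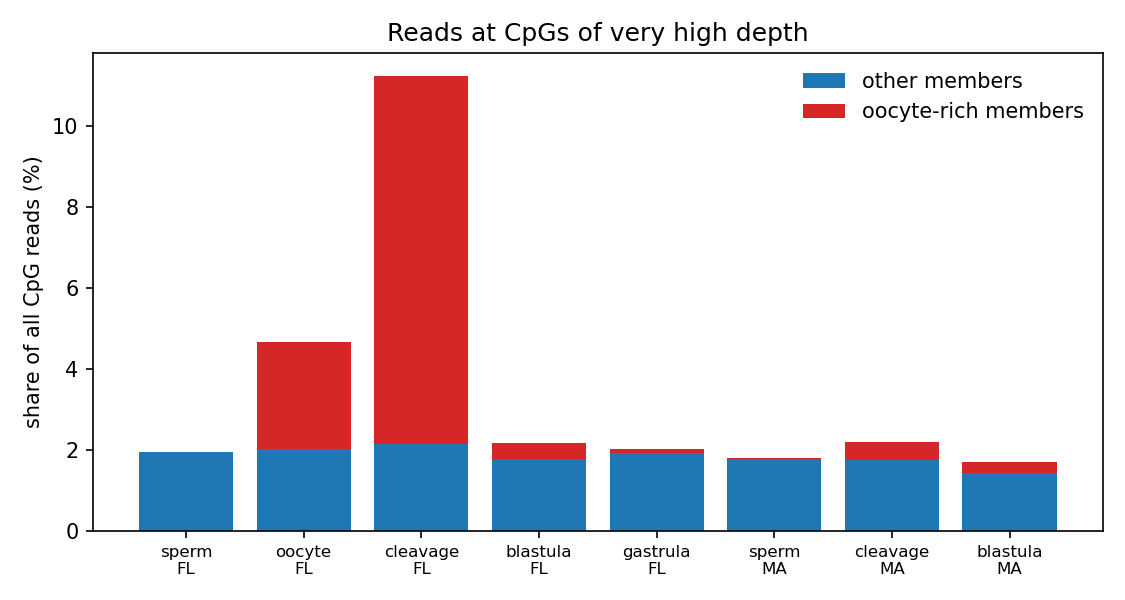
Share of all CpG reads (%) at members in each of the 8 samples (FL, Florida; MA, Massachusetts), split into 116 oocyte-rich members and all other members; each bar is 1 file. The other members held 1.41% to 2.14% of the reads in every sample, whereas the oocyte-rich members ranged from 0.0137% in sperm Florida to 9.11% in cleavage Florida.

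The 116 members stood apart by the ratio of relative depth in oocyte Florida to that in sperm Florida. The ratio was 138 to 274 (median 208) for these and 0.174 to 4.83 (median 1.12) for all other members. The division was drawn after the values were seen, at a ratio of 20, and the 116 are called oocyte-rich below. The name refers to this ratio alone, since their depth was highest in cleavage Florida and not in oocyte Florida. Their median relative depth was 9.74 in sperm Florida, 2007 in oocyte Florida, 8876 in cleavage Florida, 292 in blastula Florida and 76.7 in gastrula Florida. The deepest CpG had 145167 reads in cleavage Florida. The lowest of the 116 in oocyte Florida (793) was above the highest in sperm Florida (15.3), as the choice by the ratio of these samples implies.

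The Massachusetts samples, which did not enter the rule, showed the same order between sperm and embryos. Median relative depth of the oocyte-rich members was 13.7 in sperm, 292 in cleavage and 190 in blastula. The ratio of cleavage to sperm was 18.3 to 27.2 (median 21.9) for each of the 116, and 0 to 3.53 (median 0.889) over the 14548 other members with reads in sperm Massachusetts. The ratio of blastula to sperm was 10.5 to 18.7 against 0 to 3.33. The value in cleavage Massachusetts was far below that in cleavage Florida. Origin and library cannot be told apart here, with 1 file for each.

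**Figure D2:**
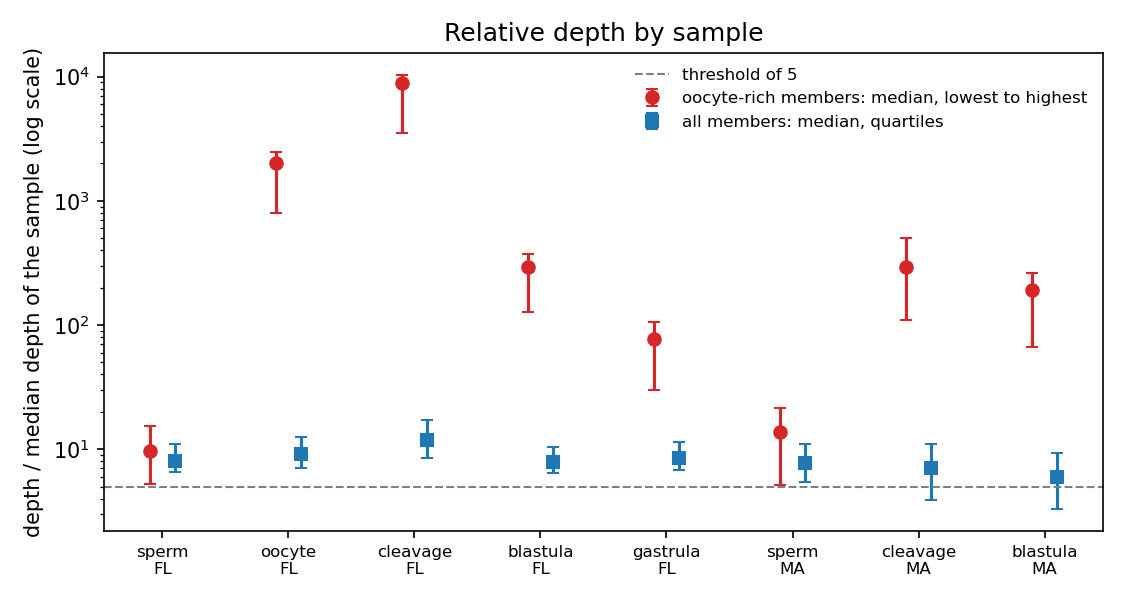
Relative depth (reads at a CpG divided by the median depth of the sample, log scale) in the 8 samples; circles and bars give the median and the lowest to highest value of the 116 oocyte-rich members, squares and bars the median and quartiles of all 14782 members, and the dashed line the threshold of 5. The oocyte-rich members went from a median of 9.74 in sperm Florida to 8876 in cleavage Florida, while the median of all members stayed between 5.92 and 11.9.

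The oocyte-rich members were nearly unmethylated in every sample. Their pooled level, the methylated reads of all members divided by all their reads, was 0.00643 to 0.0107 over the 8 samples, and the highest value of a single member was 0.0623. They lay in 12 clusters on 9 scaffolds, where a cluster is a run of members no more than 1000 bp apart. The 5 deepest clusters with at least 10 members were all of this kind. They were scaffold_229:238608-239262 with 15 members, scaffold_26:836420-837390 with 19, scaffold_185:285978-286606 with 12, scaffold_8555:3041-3347 with 13 and scaffold_493:17258-17535 with 19. Another cluster on scaffold_493, at 22693 to 23158, had 15 members. In all 6 of these clusters every listed CpG was a member. On scaffold_229 the median relative depth was 12.6 in sperm Florida, 2289 in oocyte Florida and 9866 in cleavage Florida.

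A further 118 CpGs that are not members exceeded 100 times the median in oocyte Florida and 20 times their own relative depth in sperm Florida. All 118 were at or below the threshold in sperm Florida, and 95 lay on the scaffolds of the oocyte-rich members. The number of oocyte-rich CpGs was therefore limited by the depth required of sperm. Whether the oocyte-rich members are mitochondrial DNA, other DNA of the egg or nuclear DNA was not tested, as no scaffold is named for an organelle.

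Without the oocyte-rich members the share of reads was 1.76% to 2.14% in the Florida samples and 1.41% to 1.78% in the Massachusetts samples. The lowest oocyte-to-sperm ratios among clusters of at least 10 members went the other way. The cluster scaffold_3030:6836-7343 (38 members) had a relative depth of 32.7 in sperm Florida and 11.98 in oocyte Florida, with 23.9, 18.9 and 19.2 in the 3 Florida embryo samples. On scaffold_626 (18 members, 4042 to 5240) the values were 18.7 in sperm and 8.80 in oocyte, and on scaffold_9749 (29 members, 1992 to 2434) they were 15.2 and 7.37. All 3 clusters had a level of at most 0.0125 in every sample.

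Members were less methylated on average than other CpGs. The mean level over members was 0.0938 to 0.0955 in the Florida samples and 0.110 to 0.117 in the Massachusetts samples. Over all other covered CpGs it was 0.111 to 0.116 and 0.130 to 0.142. The mean over all covered CpGs was lower for members in all 8 samples. With at least 20 reads it was lower in 7, and in blastula Massachusetts it was 0.1142 for members against 0.1139 for other CpGs. In sperm Florida it was 0.0955 for members against 0.116 for other CpGs, and in cleavage Massachusetts 0.117 against 0.142. These are means over CpGs that share reads and libraries, and no test was made of them.

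The forms of the distributions differed more than the means. Among CpGs with at least 20 reads, an intermediate level of 0.2 to 0.8 was found at 9.40% to 12.01% of members and at 4.12% to 9.31% of other CpGs. A level over 0.8 was found at 3.47% to 4.47% of members and at 7.26% to 9.32% of other CpGs. In sperm Florida 9.40% of members were intermediate against 4.12% of other CpGs, and 4.11% were over 0.8 against 9.32%. In each of the 8 samples members as a whole had more intermediate and fewer high levels. Median depth differed between the sets, and its part in these shares was not tested beyond the minimum of 20 reads.

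**Figure D3:**
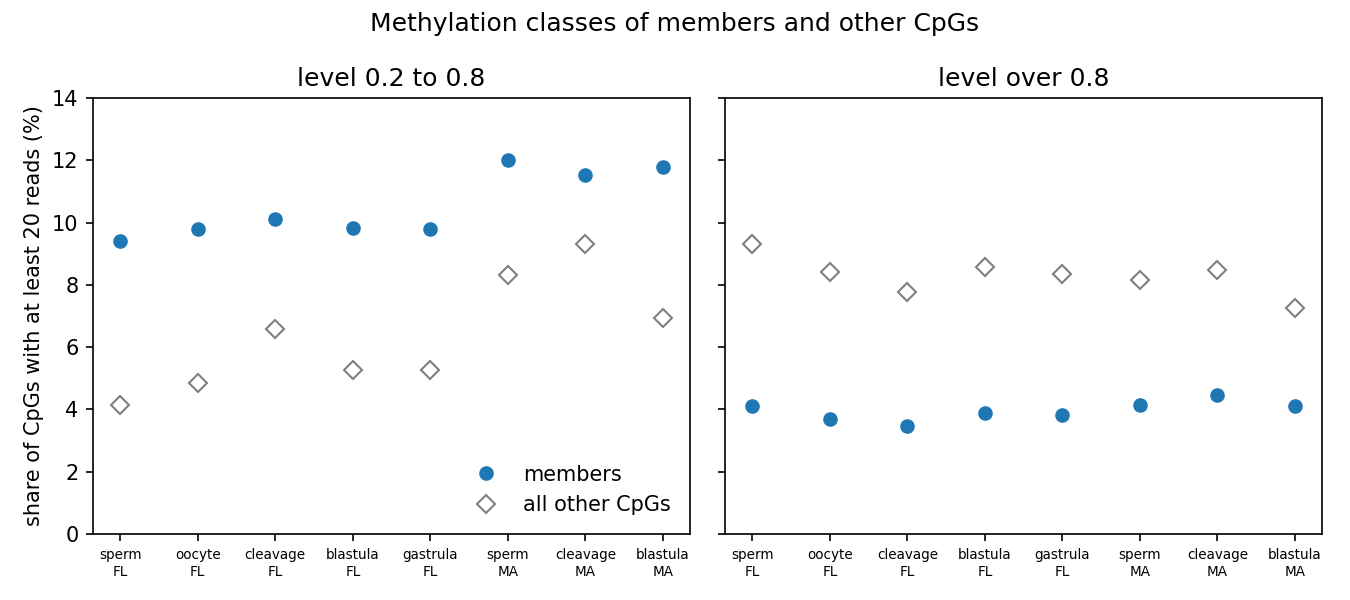
Share (%) of CpGs with at least 20 reads that had a level of 0.2 to 0.8 (left) or over 0.8 (right) in each of the 8 samples, for members (filled circles) and all other CpGs (open diamonds); each point is 1 file. Members lay above the other CpGs in every sample on the left (9.40% to 12.01%) and below them on the right (3.47% to 4.47%).

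Level did not follow depth in 1 direction. Members with a median Florida relative depth of 20 to 50 (764 CpGs) had the highest mean level, 0.129 to 0.156 over the 8 samples, and 14.5% to 18.9% of them were intermediate. The 293 members above 50 had the lowest mean, 0.0306 to 0.0415, and the share over 0.8 was 0% in every sample. All 116 oocyte-rich members were among the 293, and the mean of the other 177 was 0.0448 to 0.0626. Members between 5 and 7.5, of which there were 5106, had a mean of 0.0996 to 0.136.

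The members formed 1584 clusters on 836 of the 10148 scaffolds with listed CpGs. Of these, 224 held a single member and 514 held at least 10, and the 514 together held 71.5% of all members. Their median span was 483 bp, and the range was 85 to 7816 bp. In 206 of the 514 every listed CpG was a member. The 10 largest clusters held 6.05% of members, and no scaffold held more than the 257 members of scaffold_82.

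Depth fell steeply beside the clusters of at least 10 members. The CpGs outside had not passed the rule, so in the Florida samples the step from members to them is in part set by it. In sperm Florida the median relative depth was 8.68 at members, 4.71 at CpGs up to 50 bp outside, 2.05 at 100 to 200 bp and 0.868 at 800 to 1000 bp. In cleavage Massachusetts, outside the rule, it was 7.22 at the same members, 3.78, 1.44 and 0.667. Members lay more often than other CpGs on short scaffolds and near scaffold ends. Scaffolds with a listed span under 10 kb held 24.4% of members and 5.47% of all listed CpGs. Within 1000 bp of the outermost listed CpG of a scaffold lay 22.6% of members and 5.32% of all. The number of other CpGs within 100 bp was alike, with a median of 8 for members and 8 for all listed CpGs.

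**Figure D4:**
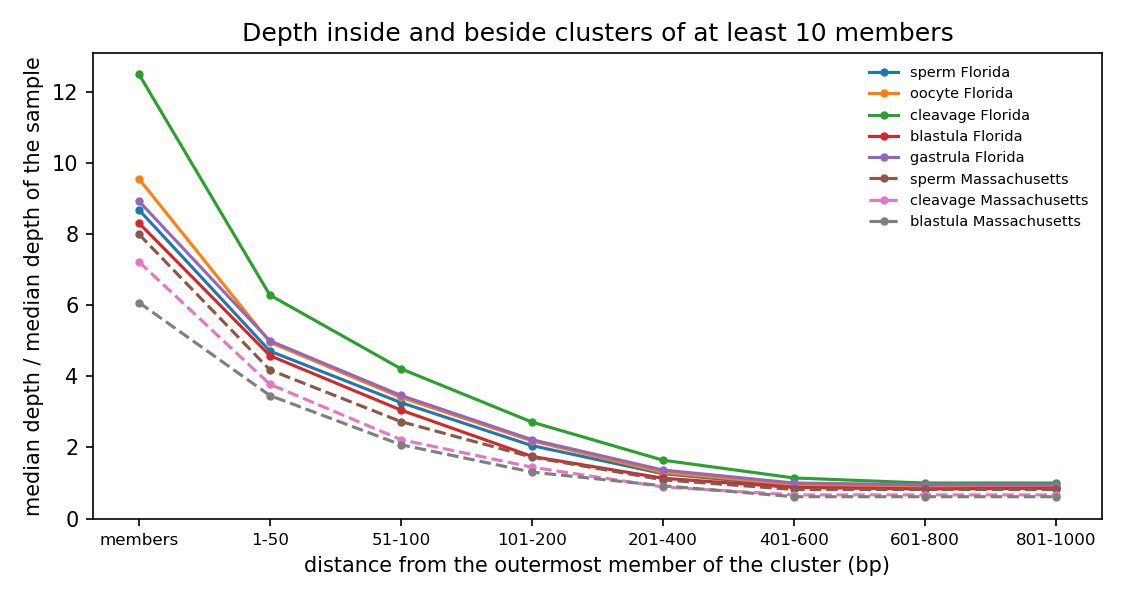
Median relative depth at members and at CpGs 1 to 1000 bp outside the 514 clusters of at least 10 members, with distance bins in bp on the horizontal axis and 1 line per sample (solid, Florida; dashed, Massachusetts). In sperm Florida the depth fell from 8.68 at members to 0.868 at 800 to 1000 bp, and all 8 samples were at or below 1.00 in the last bin. The CpGs outside had not passed the rule, so the first step in the Florida samples is in part set by it.

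Whether members lie in sequence that recurs was read from the spacing of CpGs, which did not enter the rule. A CpG was called repeated when a run of 6 consecutive distances between neighbouring CpGs that includes it was found at another place, read in either direction. This held for 85.8% of members and for 44.4% of all listed CpGs. The spacing was found at 10 or more places for 66.1% of members and 17.8% of all, and the median number of places was 48 for members and 1 for all. With runs of 8 distances the shares were 79.5% and 36.8%. The oocyte-rich members differed from the other members here, since 22 of 116 (18.97%) were repeated against 86.3% of the others. Another place could lie in the same cluster at a shifted start, so these counts do not separate repeats within a cluster from those elsewhere. Equal spacing is a description and does not show that the sequences are the same.

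Repeated and single members differed in level. With at least 20 reads, repeated members had a mean level of 0.0682 to 0.0858 over the 8 samples, and single members 0.245 to 0.293. Single members were also more often intermediate, 23.5% to 28.8% against 7.05% to 9.59%. Levels over 0.8 were found at 11.2% to 14.1% of single members and 8.49% to 11.2% of single other CpGs, and the share was higher for members in each of the 8 samples, unlike that over all members. The same split of mean level among other CpGs was smaller, 0.0736 to 0.117 for repeated and 0.124 to 0.154 for single CpGs. Single members numbered 2103 in all.

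Clusters that shared spacing runs were joined to families. Of the 514 clusters, 278 fell into 37 families and 236 into none. The largest family had 140 clusters with 2387 members on 121 scaffolds, and the Florida mean level of each of its clusters was 0.00711 to 0.0132, with a relative depth of 6.55 to 26.3. In 33 of the 37 families the clusters lay within 0.05 of each other. Of all 514 clusters, 433 had a Florida mean under 0.05, so such closeness is common without shared spacing too. Whether clusters of a family were closer in level than other clusters was not tested. The widest span was that of 2 clusters with 26 members on scaffold_169 and scaffold_215, at 0.0113 and 0.844. A family of 8 clusters with 226 members spanned 0.000987 to 0.283. Among the 8 clusters, and chosen after their values were seen, scaffold_9104:931-1364 (26 members) was at 0.00706 and scaffold_9165:2290-3040 (28 members) at 0.287 in sperm Florida, with relative depths of 114 and 81.8. Near-identical copies could share reads, so the levels of clusters in a family are uncertain as values of single places.

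Most clusters were unmethylated throughout. Of the 514 clusters with at least 10 members, 430 had a pooled level under 0.05 in all 5 Florida samples, 38 were between 0.2 and 0.8 in all 5, and 10 were over 0.8 in all 5. The cluster scaffold_82:222838-226540 (121 members) had 0.00857 in sperm, 0.00960 in oocyte, 0.0133 in cleavage, 0.00685 in blastula and 0.00874 in gastrula Florida, and 0.0108 to 0.0125 in the Massachusetts samples. The clusters scaffold_2691:1082-3628 (121 members), scaffold_976:14303-19877 (75 members) and scaffold_24:959720-960528 (66 members) were at most 0.0130 in every sample. Over the 433 clusters with a Florida mean under 0.05 the median level was 0.00726 to 0.0116 in the 8 samples. These values include any unconverted cytosines, which were not subtracted. The unconverted share that the study reports for the sea anemone samples is of about the same size as these medians. Differences between samples at such levels can therefore not be told apart from differences in conversion.

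The 10 high clusters held 161 members and stayed high in the Massachusetts samples, where the lowest level was 0.756 on scaffold_22:1171772-1173239. The highest among them was scaffold_397:183716-185864 (17 members, chosen after its values were seen), with 0.885 to 0.929 in Florida and 0.889 to 0.927 in Massachusetts at a relative depth of 17.1 to 20.8 and 8.69 to 12.1. The 38 intermediate clusters held 910 members. Within them, 78.02% of members were themselves between 0.2 and 0.8 in sperm Florida, and the median SD of level over the members of a cluster was 0.107. In 7 of the 38 clusters fewer members were intermediate than not, and their SD was 0.247 to 0.448. The largest was on scaffold_1015 (46 members), where 2 members were intermediate and levels ran from 0 to 0.982.

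By class medians, the level of the DNA beside the clusters rose with that of the clusters, but single clusters departed from this. Over the CpGs up to 5000 bp outside, clusters under 0.05 had a median flank level of 0.00803 to 0.0131. The 46 clusters with a Florida mean of 0.2 to 0.8 had median levels of 0.449 to 0.584 and flanks of 0.239 to 0.291. The 16 clusters over 0.8 had 0.845 to 0.882 and flanks of 0.525 to 0.603. In sperm Florida the flank was over 0.2 at 27 of the 42 intermediate clusters that had one. The cluster on scaffold_397 was at 0.929 with a flank of 0.0327, and scaffold_82:222838-226540 at 0.00857 with a flank of 0.310. The median flank depth of a class was 0.769 to 1.29 times the median of the sample. Flanks begin at the cluster edge, where depth was still raised, and their reads were pooled.

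The range of pooled level over the 5 Florida samples had a median of 0.00603 and a 90th percentile of 0.0499 over the 514 clusters, and it reached 0.1 in 14 and 0.2 in 2. The 430 clusters under 0.05 had little room to move. Among the 38 intermediate clusters the median range was 0.0597 and the largest 0.190. Pearson's r of cluster levels was 0.991 to 0.999 between Florida samples, 0.953 to 0.993 between Massachusetts samples and 0.858 to 0.958 across the origins. These correlations run over clusters of at least 10 members, most of them under 0.05, which share libraries and, within families, possibly reads.

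Both clusters with a range of at least 0.2 had the same spacing of CpGs. On scaffold_367:155506-155941 (10 members) the level was 0.178 in sperm Florida, 0.540 in oocyte, 0.416 in cleavage, 0.444 in blastula and 0.447 in gastrula Florida. On scaffold_6726:5667-6042 (14 members) it was 0.164, 0.502, 0.407, 0.420 and 0.412 in the same order. Sperm Florida was the lowest and oocyte Florida the highest of the 5 samples at both. In sperm Massachusetts the levels were 0.561 on scaffold_367 and 0.427 on scaffold_6726, so the low value was seen in the sperm of Florida and not in that of Massachusetts. Among the CpGs up to 5000 bp outside, sperm Florida was also the lowest and oocyte Florida the highest of the Florida samples. They were at 0.364 and 0.621 on scaffold_367 and at 0.174 and 0.544 on scaffold_6726. In the tests described below, 14 of 14 members on scaffold_6726 and 8 of 10 on scaffold_367 were called between sperm and oocyte Florida (Fisher's exact test, largest adjusted p 8.04e-11 and 3.34e-10). Both clusters were picked for their range of level over these same samples, so their values and calls describe that choice.

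In these clusters CpGs alternated at distances of 11 and 49 bp, a unit of 60 bp. Runs of 4 such distances were found at 5 places on 3 scaffolds, with 145 CpGs of which 29 are members. The 4 places on scaffold_367 and scaffold_6726 had levels of 0.162 to 0.193 in sperm Florida and 0.506 to 0.569 in oocyte Florida, the place with no member included (scaffold_367:158055-158786, 0.166 and 0.569). The place on scaffold_60 had 5 CpGs at usual depth and no methylated read in 186 reads of sperm Florida. Because reads may be shared among the 4 places, they are not independent of each other. In cleavage and blastula Massachusetts the median relative depth at these 4 places was at most 0.333, against 2.18 to 5.00 in sperm Massachusetts.

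The next largest range was on scaffold_86:384062-384364 (11 members). Here oocyte Florida was low, at 0.254, while sperm, cleavage, blastula and gastrula Florida were at 0.435, 0.438, 0.443 and 0.418, and the Massachusetts samples at 0.453 to 0.483. The CpGs up to 5000 bp outside were also low in oocyte Florida, at 0.206, against 0.370 to 0.422 in the other Florida samples. On scaffold_65:526107-526819 (75 members) sperm Florida was high, at 0.140, against 0.0562 to 0.0655 in the other Florida samples, although 1 member alone passed the test between sperm and oocyte.

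Tandem spacing as such was also counted over the clusters of at least 10 members. In 145 of the 514 clusters (28.2%), at least 80% of the CpGs compared had another CpG at 1 fixed distance. The median of these distances was 169 bp. Only CpGs with room for the distance inside the cluster were compared, which could be as few as 8. The distance was the best of many tried per cluster, and the share in other stretches of the genome was not counted. Of the 145 clusters, 82.8% had a Florida mean under 0.05 and 11.7% between 0.2 and 0.8. Of the other 369 clusters, 84.8% and 7.86% did. This count was made after the levels on scaffold_367 and scaffold_6726 had been seen.

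Each member was tested between libraries by Fisher's exact test (2-sided) on its reads, with Benjamini-Hochberg adjustment over all CpGs with at least 5 reads in both. Calls required both an adjusted p under 0.05 and levels at least 0.2 apart. Between sperm and oocyte Florida 82 members (0.555%) were called, where 1.34% of all CpGs tested were called. Of the 82, 34 were higher in sperm (0.230%, against 0.783% of all) and 48 higher in oocyte (0.325%, against 0.554%). Between sperm and cleavage Florida there were 58 (0.392%, against 0.337% of all), and between oocyte and cleavage Florida 33 (0.223%, against 0.168%). Between cleavage and blastula Florida 4 members were called (0.0271%, against 0.0077%). Between blastula and gastrula Florida the Fisher test called 0 members and 0% of all CpGs, and 932 members (6.30%, against 0.898% of all) had an unadjusted p below 0.05. Neighbouring CpGs share reads, so the called members are not independent.

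Members had a median of 414 to 726 reads over both Florida libraries of a comparison, against 48 to 97 for all CpGs, so smaller differences could be called among them. The counts of CpGs deeper than the median were then scaled down to the median depth of the sample and rounded. Other CpGs were left as they were. With these scaled reads, 6 members were called between sperm and oocyte Florida (0.0406%, against 0.912% of all) and 0 in each of the other 4 Florida comparisons. The share of members called was then below that of all CpGs in the 3 comparisons of gametes and cleavage, since 0.0658% of all CpGs were called between sperm and cleavage and 0.0181% between oocyte and cleavage. The excess of members at deposited depth in the comparisons with cleavage was thus not seen with scaled reads. Scaled members keep levels measured on many reads, while CpGs at or below the median keep their full counting error. The lower share of members is therefore in part set by the scaling, and their share at truly equal depth was not tested.

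The Massachusetts samples were sequenced to a lower depth and did not enter the rule. In sperm Massachusetts 11782 members (79.7%) exceeded 5 times the median, where 0.314% of all listed CpGs did. In cleavage Massachusetts 9683 (65.5%) did, against 0.377%, and in blastula Massachusetts 8703 (58.9%), against 0.307%. All 3 were exceeded by 8005 members (54.2%), and none by 2497. No read was found at 118 members in sperm, 282 in cleavage and 276 in blastula Massachusetts.

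A group of 1008 members lay below the median depth in both Massachusetts embryo samples. Their median relative depth was 0.222 in cleavage and 0.308 in blastula Massachusetts, but 3.64 in sperm Massachusetts and 7.63 to 9.43 in the 5 Florida samples. At the level of clusters, 29 of 514 were below the median in both embryo samples. In all 29 the relative depth of sperm Massachusetts lay between that of the embryos and that of every Florida sample, with medians of 0.357 for the embryos, 4.45 for sperm and 8.98 for Florida. The clusters were picked for high depth in Florida and low depth in the embryos, so an intermediate place of sperm Massachusetts is in part set by that choice.

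Clusters were picked by level in the same way. In 27 clusters both Massachusetts embryo samples were at least 0.2 above all 5 Florida samples, and in 24 of these the level of sperm Massachusetts fell between them. Median levels were 0.0272 for Florida, 0.317 for sperm Massachusetts and 0.489 for the embryos. In 3 clusters both embryo samples were at least 0.2 lower, and sperm lay between in 1. Whether the origin label of sperm Massachusetts is right, or whether the sample is mixed, was not tested. Each value given for it or for the origins holds only as far as that label does, and the counts of clusters that differ between origins are given with and without it.

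Over 502 clusters with at least 50 reads in each of 6 samples, the mean level of the 3 stages was at least 0.1 higher in Massachusetts in 39 and at least 0.1 lower in 10. The median difference was 0.000634. Without sperm the counts were 46 and 11, and with sperm alone they were 31 and 5 of 514. The level was higher in Massachusetts in 298 of the 502. Most clusters lie under 0.05 in Florida, where a fall of 0.1 is not possible.

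The 3 clusters named for the largest difference between origins are shown in the plot of cluster levels by sample, and their values and calls describe that choice. On scaffold_5173:5181-6548 (16 members) the level was 0.00763 to 0.0141 in the 5 Florida samples, 0.339 in sperm Massachusetts and 0.723 and 0.724 in cleavage and blastula Massachusetts. On scaffold_81:145227-145744 (13 members) it was 0.144 to 0.278 in Florida, then 0.556, 0.889 and 0.874 in Massachusetts. On scaffold_4979:91-671 (14 members) it was 0.737 to 0.788 in Florida, then 0.413, 0.110 and 0.0762.

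All 16, 13 and 14 members of these clusters were called between cleavage Massachusetts and cleavage Florida, and again between the blastula samples. The smallest difference among them was 0.263, on scaffold_5173, and the largest 0.853, on scaffold_81. The largest adjusted p of the Fisher test was 0.0112, on scaffold_4979. The median relative depth was 3.19 to 14.3 over the Massachusetts samples of the 3 clusters. Single members were thinner, down to 0.889 on scaffold_4979 in cleavage Massachusetts.

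**Figure D5:**
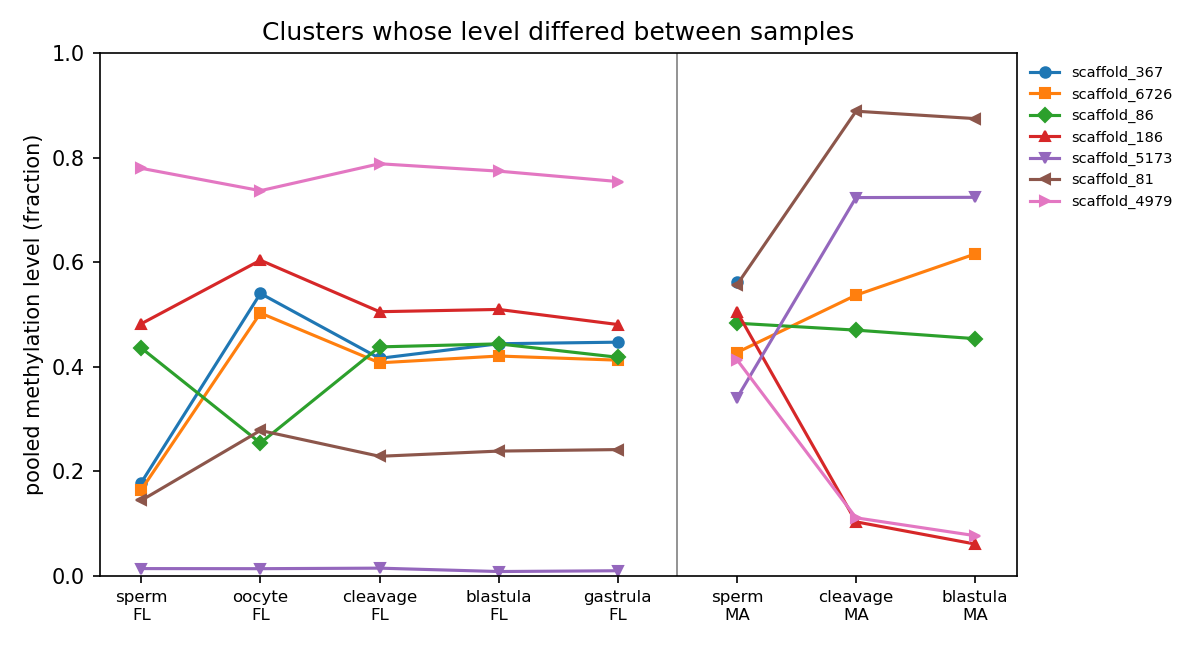
Pooled methylation level (methylated reads over all reads of a cluster, fraction) of 7 clusters, each named by its scaffold, in the 5 Florida (FL) and 3 Massachusetts (MA) samples; each point is 1 file, lines join points for reading only, and points with fewer than 50 reads are left out. On scaffold_367 and scaffold_6726 sperm Florida was low (0.178 and 0.164), and on scaffold_5173, scaffold_81 and scaffold_4979 sperm Massachusetts lay between Florida and the Massachusetts embryos.

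On scaffold_186:35052-36991 (100 members) both Massachusetts embryo samples were low in depth and in level. The level was 0.482, 0.603, 0.505, 0.509 and 0.480 in sperm, oocyte, cleavage, blastula and gastrula Florida and 0.505 in sperm Massachusetts, but 0.103 in cleavage and 0.0602 in blastula Massachusetts. Relative depth was 9.41 to 18.9 in Florida, 4.27 in sperm Massachusetts, and 1.11 and 1.08 in the Massachusetts embryos. Of the other samples, sperm Massachusetts had the lowest depth and a level within the Florida range. The CpGs up to 5000 bp outside were at 0.283 to 0.354 in Florida and 0.176 in sperm Massachusetts. In cleavage and blastula Massachusetts they were at 0.0384 and 0.0283, at a median relative depth of 0.889 and 0.846. On the same scaffold the cluster at 38391 to 39567 (56 members) had 0.599 to 0.676 in Florida and 0.612 in sperm Massachusetts. In the Massachusetts embryos it had 0.218 and 0.0649, at a relative depth of 0.333 and 0.231. A link of depth and level was not tested.

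Among the clusters named for their size, scaffold_9:1769962-1772071 (66 members) had 0.00859 to 0.0132 in Florida and 0.0801, 0.108 and 0.110 in sperm, cleavage and blastula Massachusetts. On scaffold_322:68200-72847 (85 members) the level was 0.0158 to 0.0186 in Florida, 0.0271 in sperm, 0.0599 in cleavage and 0.122 in blastula Massachusetts. The clusters scaffold_359:172948-180763 (121 members) and scaffold_421:5529-8113 (65 members) were intermediate to low in both origins, at 0.189 to 0.258 and 0.124 to 0.196.

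The clusters of 2 scaffolds, chosen after their values were seen, held many of the calls between origins. On scaffold_349:153393-154304 (45 members) the level was 0.0194 to 0.0330 in Florida and 0.282, 0.420 and 0.297 in sperm, cleavage and blastula Massachusetts, and all 45 members were called in cleavage. On scaffold_161 the 3 clusters at 61 to 1252, 2475 to 2667 and 46375 to 46567 (33, 13 and 13 members) were at 0.00509 to 0.0103 in Florida and 0.329 to 0.532 in Massachusetts. Every member of these 3 clusters was called at all 3 stages. The median relative depth of each cluster was at least 6.37 in every sample. Single members went down to 4.77, in blastula Massachusetts at 61 to 1252. The CpGs up to 5000 bp outside the 3 clusters on scaffold_161 were at 0.00571 to 0.0164 in Florida and 0.167 to 0.500 in Massachusetts. Outside the cluster on scaffold_349 they were at 0.0795 to 0.0972 and 0.161 to 0.244.

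Over all members, 476 (3.25%) were called between sperm Massachusetts and sperm Florida, where 2.11% of all CpGs tested were called. Of the 476, 433 were higher in Massachusetts (2.95%, against 1.81% of all). Between the cleavage samples 886 members (6.32%) were called, against 2.16%, with 773 higher in Massachusetts (5.51%, against 1.99%). Between the blastula samples 906 (6.39%) were called, against 4.07%, with 689 higher in Massachusetts (4.86%, against 3.6%). Calls with the higher level in Massachusetts prevailed among members and among all CpGs.

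These shares too changed with scaled reads. With reads scaled to the median depth, 33 members (0.225%, against 1.20% of all) were called between the sperm samples, 25 (0.178%, against 1.05%) between the cleavage samples and 388 (2.73%, against 3.32%) between the blastula samples. In windows of 1000 bp with reads summed, 2.56%, 6.11% and 5.96% of windows with members were called against 4.90%, 7.47% and 7.30% of all windows. With scaled reads the share of members called was below that of all CpGs in all 3 comparisons, a direction that the scaling in part sets. Windows with members also hold other CpGs, so their shares are not shares of members.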

How the data were processed

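Whole-genome bisulfite sequencing was done on 8 sea anemone samples, with 1 deposited file each. Per the study's methods, reads were trimmed with Trimmomatic, mapped with Bismark to ASM20922v1 plus lambda DNA and deduplicated, and overlapping mates were clipped (SAMtools 0.1.19 is named in the submitters' processing notes; other versions are not given in the sources used here). Deduplication by position, and the handling of reads that map to several places, limit the depth that repeated DNA can reach. For each CpG the authors deposited counts of reads with and without methylation, both strands summed, and the level as a fraction, which differed from the ratio of the counts by at most 5e-05. Non-conversion was not subtracted. Total reads over CpGs were 69290307 to 389977166 per sample.

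Levels were recomputed from the counts. Depth was divided by the median of covered CpGs, and members exceeded 5 times that median in all 5 Florida samples. Members within 1000 bp were joined to clusters. Fisher's exact test (2-sided, own code in numba 0.67.0, tested on simulated data) with Benjamini-Hochberg adjustment was run on CpGs with at least 5 reads in both samples. Calls required an adjusted p under 0.05 and levels at least 0.2 apart. Python 3.11.15, numpy 2.4.6, pandas 2.3.3 and scipy 1.17.1 were used. Samples were grouped by their titles, and files of the other species entered only the count of listed CpGs.

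Clusters were named by rule: the 10 with the most members; among those with at least 10 members, the 5 deepest, the 3 with the largest range of level over Florida samples, the 3 with the largest difference between origins, and the 3 with the highest and the 3 with the lowest oocyte-to-sperm depth. The members, lists and rules were chosen with earlier results of these data known. The oocyte-rich division, the run length of repeated spacing, the tandem count and the 60 bp unit were set after seeing the data. Alternatives were other depth thresholds and references, call thresholds, scaled reads, windows, and leaving out samples or clusters.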

Additional observations from a re-analysis of the deposited data

Results flagged for a closer look

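A few measures moved in opposite directions between stages in the 2 origins. Each origin has 1 file per stage, and the difference between origins was not tested. From sperm to cleavage the mean level of members rose by 0.00744 in Massachusetts and fell by 0.000571 in Florida. From sperm to blastula it changed by 0.00309 in Massachusetts and by -0.00128 in Florida. The share of reads at members other than the oocyte-rich ones changed from sperm to cleavage by -0.0200 percentage points in Massachusetts and by 0.201 percentage points in Florida. Sperm Massachusetts, which enters each of these contrasts, lay between Florida and the Massachusetts embryos at many clusters.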

How the results depend on the processing

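No paired analysis was possible because each group has 1 file and the labels give no shared replicate numbers; no replicate could be left out either. The threshold set the number of members, 14782 at 5 times the median, 40791 at 3 times, 2785 at 10 times and 8005 when all 8 samples had to pass; leaving out any 1 Florida sample from the rule gave 15205 to 16478. The mean share of reads over the Florida samples was 4.41%, and it was 6.31% at 3 times, 2.01% at 10 times, 5.42% when 4 of the 5 samples sufficed and 1.95% without the oocyte-rich members. The mean level over the 8 samples was 0.102. It was 0.0746 with reads pooled, 0.0948 pooled without the oocyte-rich members, 0.114 at 10 times and 0.1024 without the oocyte-rich members. Without the cluster scaffold_2691:1082-3628 (121 members) it was 0.1024. That cluster ties for the most members with scaffold_359:172948-180763 and scaffold_82:222838-226540, which were not left out in turn. The pooled value was moved most by the depth of the oocyte-rich members. At 10 times the median of the Massachusetts samples 4470, 4422 and 3113 members passed in sperm, cleavage and blastula.

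Counts of called members moved by over 1.5 times under most call settings; those that did are given here. With a difference of at least 0.1, 304, 159, 93 and 9 members were called in sperm with oocyte, sperm with cleavage, oocyte with cleavage and cleavage with blastula (Florida), and 749 between the sperm samples of the origins. These were 2.06%, 1.08%, 0.629%, 0.0609% and 5.11% of members against 1.35%, 0.340%, 0.170%, 0.00785% and 2.13% of all CpGs, so the share of members between sperm and oocyte, below that of all at 0.2, was above it at 0.1. With at least 0.3 they were 24, 9, 1 and 0, then 212 between the sperm and 577 between the blastula samples, or 0.162%, 0.0609%, 0.00676%, 0%, 1.45% and 4.07% of members against 1.21%, 0.324%, 0.166%, 0.00745%, 2.01% and 3.81% of all. With scaled reads they were 6, 0, 0 and 0, then 33, 25 and 388 between the sperm, cleavage and blastula samples. In windows of 1000 bp with members, 5, 4, 2 and 0 windows were called, then 37, 85 and 84, which are counts of windows and not of members. The Florida counts were 0.343%, 0.275%, 0.137% and 0% of windows with members, against 1.77%, 1.22%, 1.20% and 0.214% of all windows. Blastula with gastrula gave 0 members at each setting. The number of clusters and of repeated members stayed within 1.5 times under the settings run. Massachusetts embryo samples, with median depths of 9 and 13, limit what can be said of members that lost depth there.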

Other observations

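The residual level of unmethylated clusters was not the same everywhere. In sperm Florida 2 of the 514 clusters with at least 10 members were under 0.003, and the lowest of the others was at 0.00460. Both were also under 0.003 in the other 7 samples, where the number of such clusters was 2 or 3 in each Florida sample and 8, 28 and 22 in sperm, cleavage and blastula Massachusetts, which were read less deeply. They were scaffold_944:41497-42480 (58 members, all with repeated spacing), with 0.000750 to 0.00231 over the 8 samples, and scaffold_3526:7351-9397 (17 members), with 0.000716 to 0.00207. The median of clusters with a Florida mean under 0.05 was 0.00922 in sperm Florida. Both were deep, with a relative depth of 34.7 to 112 on scaffold_944 and 9.92 to 71.7 on scaffold_3526. These clusters were chosen after their values were seen, and no test was made of the difference.

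A spread between single libraries holds library and biological differences besides counting error, so it is given for members and other CpGs side by side. For members with levels of 0.2 to 0.8 the SD of the difference divided by its counting error, which is 1 for pure counting, was 2.68 between sperm and oocyte Florida and 1.23 between blastula and gastrula Florida. For other CpGs in that range it was 2.73 and 1.10. Between the origins it was 2.44 for members and 2.33 for other CpGs in sperm, 4.08 for members and 2.35 for other CpGs at cleavage, and 4.66 and 2.97 at blastula, where members also had more reads.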
